A study of Mus musculus with 10 samples.

Results

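Genes of glycerolipid and phospholipid synthesis enzymes were examined in CD36-positive and CD36-negative cells sorted from mouse retina. The group was given as 35 gene symbols with no threshold on their values, though it was proposed with earlier results of these data known. In the deposited count table, 34 of the 35 symbols matched a row, and Gpat3 was found under its older symbol Agpat9, out of 21869 genes in the table. Every library came from mice labelled WT (wild type), from the part of the retinal suspension that was alive, CD11b-positive and intermediate for CD45, a gate the labels call microglia. CD36 is a scavenger receptor that takes up lipids, and the gate was divided by it into 5 CD36-positive libraries (numbered 1, 2, 3, 4 and 7) and 5 CD36-negative libraries (numbered 1, 2, 4, 7 and 8). Per the labels, mice had been given 20 mg/kg of NaIO3 (sodium iodate, which damages the pigment epithelium beneath the retina) intravenously or PBS alone, and eyes were taken 7 days later. Which of these treatments the 10 samples had, and the age and sex of the mice, are not given in the sources used here. The labels do not say that replicates came from separate animals, so p-values measure only the spread between these samples, which may be technical.

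Membrane phospholipids and storage fat are built from glycerol 3-phosphate. Acyltransferases add fatty acids to make lysophosphatidic acid and then phosphatidic acid, which is dephosphorylated by lipins to diacylglycerol or activated to CDP-diacylglycerol. Diacylglycerol leads to triglyceride and, through the choline and ethanolamine branch, to phosphatidylcholine and phosphatidylethanolamine, while CDP-diacylglycerol leads to phosphatidylinositol and cardiolipin. A separate set of lysophospholipid acyltransferases replaces the fatty acids of finished phospholipids. In phagocytes this exchange helps set how much arachidonic acid the membranes hold, which was not measured here.

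Total counts per library ran from 5001692 to 13250984, and 3 counts in a library, the limit that a count of 0 allows, correspond to 0.238 to 0.558 CPM, the count scaled to a library of fixed size. CD36-positive libraries 1 and 3 were the shallowest and each stood apart from the rest on a principal component of log2 CPM other than the first. Cd36 itself was at 169.7 to 255.2 CPM in the CD36-positive and 41.8 to 55.3 CPM in the CD36-negative libraries. All 10 microglia markers were measured in both groups, summing to 8495 to 18626.5 CPM in CD36-positive and 7987 to 18910 CPM in CD36-negative libraries, and 0 of 10 passed the test. Markers of other blood cells were lower in CD36-positive cells: all 10 dendritic cell markers, 6 of 7 tested neutrophil markers, 6 of 9 monocyte markers and 4 of 4 tested T and NK cell markers fell. Of border macrophage markers 2 of 7 rose and 1 fell, of photoreceptor markers 2 of 10 fell, of endothelial and pericyte markers 2 of 3 fell, and of Müller glia and astrocyte markers 1 of 5 rose, while B cell and pigment epithelium markers had 0 calls among 2 tested each. All 10 photoreceptor markers had log2 fold changes below 0 (median -1.61), 7 of them at an unadjusted p under 0.05 by edgeR's quasi-likelihood test. In libraries of sorted cell pools, fewer cells of a type and less RNA per cell cannot be told apart.

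The synthesis genes as a group were expressed at nearly equal summed levels in the 2 cell fractions, and 2 of them, Agpat4 and Mboat7, were lower in CD36-positive cells. The 35 genes summed to 1781 to 2802 CPM (median 2294) in CD36-positive and 2054 to 2641 CPM (median 2330.5) in CD36-negative libraries. Lpcat2 alone was the largest part of these sums, with means of 797.4 and 726.9 CPM, so they weigh that gene most. Of the 32 genes with enough counts to test, 0 passed as higher in the CD36-positive fraction and 2 as lower, with an adjusted p below 0.05 (edgeR's quasi-likelihood test, Benjamini-Hochberg adjustment over 11596 genes). Over all 11596 genes, 2.61% were higher and 4.74% lower by the same rule and the 2 lower members were 6.25% of those tested, a share near that background. At an unadjusted p under 0.05, 2 members were on the higher side (Chka, Cept1) and 6 on the lower side (Gpat4, Agpat4, Lpcat1, Mboat7, Pcyt2, Cds2). The DESeq2 Wald test and limma voom each added 1 higher member, Cept1.

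The members' median log2 fold change was -0.01 against 0.02 over all genes, with 16 values above 0 and 16 below, and a range from -3.01 to 0.70. For 0 members did every CD36-positive library lie above every CD36-negative one, against 2.59% of all genes tested. For 3 members (Agpat4, Mboat7 and Cds2) every CD36-positive library lay below every CD36-negative one, against 5.83% of all genes. The 95% interval of the log2 fold change lay within -1 to 1 for 19 of the 32 members tested, all 19 of them not called. Over all genes tested, 49.0% had such an interval.

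**Figure D1:**
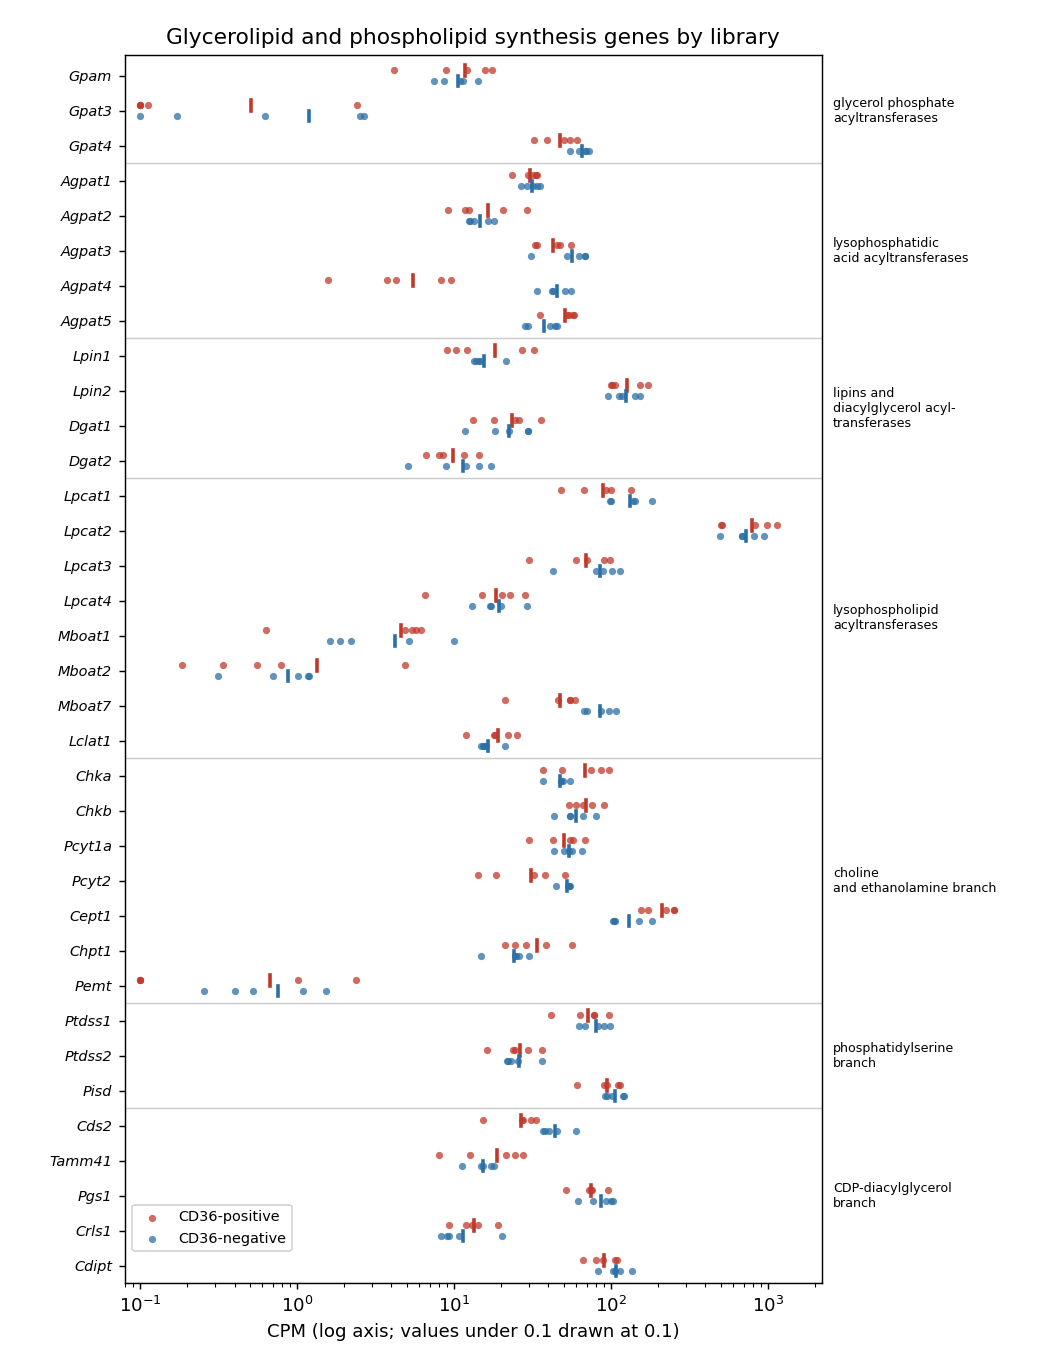
Level of each of the 35 genes by library, grouped by enzymatic step. The x axis is CPM on a log axis, dots are libraries (red CD36-positive, blue CD36-negative) and vertical bars are group means. The colours overlap in all rows except Agpat4, Mboat7 and Cds2. Lpcat2 lies far to the right of the other genes, at 498 to 1151 CPM.

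**Figure D2:**
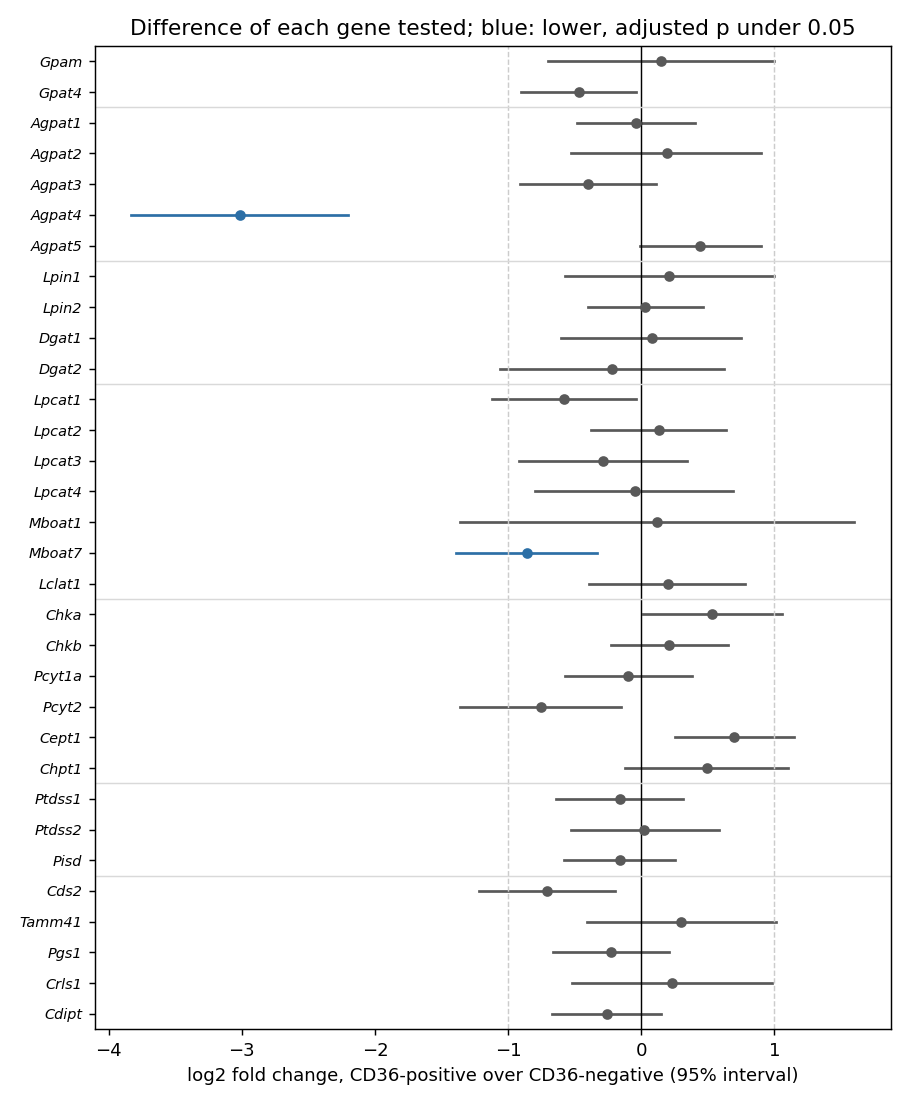
Difference of each of the 32 genes tested, as the log2 fold change of CD36-positive over CD36-negative cells (x axis) with its 95% interval. Dashed lines stand at -1 and 1. Agpat4, at -3.01, is the one gene whose interval lies wholly beyond them, and Mboat7 is the other gene in blue.

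The first acylation, of glycerol 3-phosphate, did not differ past the threshold. Gpat4, the acyltransferase of the endoplasmic reticulum and the most abundant gene of this step, was at 32.2, 50.1, 39.4, 54.7 and 60.6 CPM in CD36-positive libraries 1, 2, 3, 4 and 7. It was at 69.1, 55.1, 72.8, 62.6 and 68.6 CPM in CD36-negative libraries 1, 2, 4, 7 and 8. CD36-positive library 7 lay within the CD36-negative range and the other 4 lay below it, and the log2 fold change was -0.47 (interval -0.90 to -0.04, edgeR adjusted p = 0.193). Gpam, the mitochondrial enzyme, was low, with overlapping groups, at 4.17 to 17.5 against 7.46 to 14.3 CPM. Gpat3, the enzyme known from fat tissue, was scarcely detected: 14 counts over the CD36-positive group and 64 over the CD36-negative group, with 3 and 1 libraries at 0, and it was not tested.

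The second acylation, from lysophosphatidic acid to phosphatidic acid, held the largest difference of the group. Agpat4, one of 5 genes for this step, was at 4.28, 3.73, 1.58, 8.33 and 9.59 CPM in CD36-positive libraries 1, 2, 3, 4 and 7. In CD36-negative libraries 1, 2, 4, 7 and 8 it was at 42.2, 51.3, 55.8, 33.9 and 43.0 CPM. All 5 CD36-positive libraries were low, the highest of them far under the lowest CD36-negative library. The means were 5.50 ± 3.35 and 45.3 ± 8.52 CPM (SD, n = 5 each), resting on 262 and 2387 counts, so that Agpat4 was 8.08 times higher in CD36-negative cells (log2 fold change -3.01, SE 0.39, interval -3.83 to -2.20, edgeR adjusted p = 7.04e-05). It was called lower in each of 21 alternative fits, between -3.41 and -2.64.

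Agpat4 lies on chromosome 17 of GRCm38, from 12118704 to 12219645 on the plus strand, and is protein coding. The 250 bases before its RefSeq start (GRCm38.p6, chr17:12119034-12119283, plus strand) are shown because this gene had the largest change. They lie inside the annotated gene span but outside every annotated exon. The capitals mark GGAAGT, the core of the motif bound by PU.1, the transcription factor that defines macrophages and microglia, 78 bases before the start.

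Agpat4 upstream: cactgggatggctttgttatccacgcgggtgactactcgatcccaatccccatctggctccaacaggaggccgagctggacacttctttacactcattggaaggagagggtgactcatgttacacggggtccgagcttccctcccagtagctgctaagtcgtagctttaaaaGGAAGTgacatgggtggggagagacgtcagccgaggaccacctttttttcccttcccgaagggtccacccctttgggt

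The motifs were chosen after the sequences had been seen, and a match is a description of these letters, not a site that was shown to be bound. GGAAGT on either strand stands in the 250 bases before the start of 19.7% of 32851 RefSeq promoter entries. The members had 39 such entries, of 27 genes, and 5 of the 39 held it. CCAAT, which is also in the Agpat4 window on 2 occasions (left in lower case), stands in 33.8% of all entries and in 15 of the 39. The sterol response element TCACNCCAC (1.05% of all entries) was in 2 of the 39, both of 1 gene. The E-box CACGTG (6.02%) was in 2, and the LXR direct repeat with a spacer of 4 bases (0.0152%) in 0. Both strands were read, and none of the 5 motifs holds another.

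The other genes of this step did not pass the test. Agpat3, the most abundant of them in CPM over all 10 libraries though below Agpat5 in CD36-positive cells (43.0 against 51.3 CPM), was at 33.7, 55.7, 47.4, 45.4 and 33.0 CPM in CD36-positive and 31.1, 68.9, 68.8, 52.3 and 62.7 CPM in CD36-negative libraries. CD36-negative library 1 was the lowest of all 10, so the groups overlapped (log2 fold change -0.40, interval -0.91 to 0.11, edgeR adjusted p = 0.363). Agpat1 and Agpat2, the classical enzymes of the endoplasmic reticulum, differed by log2 fold changes of -0.04 (interval -0.48 to 0.40) and 0.19 (interval -0.53 to 0.90). Agpat5, an enzyme found in mitochondria, had one of 0.44 (interval -0.01 to 0.90, adjusted p = 0.251). The summed level of the 5 genes was 137.9 to 154 CPM in CD36-positive and 164.8 to 212.9 CPM in CD36-negative libraries, ranges that did not overlap. Without Agpat4 the other 4 summed to 133.6 to 150.3 against 122.6 to 161.6 CPM, which overlapped.

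Per kilobase of exon, Agpat4 changed its place among the 5 genes. In CD36-negative cells it had the highest level of them, 16.8 CPM per kb against 3.50 to 10.4 for the other 4, and in CD36-positive cells the lowest, 2.04 against 4.76 to 10.2. It made up 36.8%, 38.3%, 41.8%, 32.1% and 36.6% of the family's summed CPM per kb in CD36-negative libraries 1, 2, 4, 7 and 8. In CD36-positive libraries 1, 2, 3, 4 and 7 the share was 5.87%, 4.80%, 2.05%, 8.47% and 11.6%. It was the largest share in 5 of 5 CD36-negative libraries and the smallest in 5 of 5 CD36-positive ones. The largest share in CD36-positive libraries was that of Agpat1 or Agpat2, with medians of 36.5% and 21.7% against 24.2% and 15.2% in CD36-negative libraries. Shares of a family add to a fixed total, so these rise where that of Agpat4 falls. The first place of Agpat4 in CD36-negative cells depends on dividing by the length of all annotated exons, 2701 bases against 7790 for Agpat3. In plain CPM, Agpat3 had the higher mean there (56.8 against 45.3 CPM). In CD36-positive cells Agpat4 was the lowest in plain CPM as well, at 5.50 CPM, with Agpat2 next at 16.6 CPM.

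**Figure D3:**
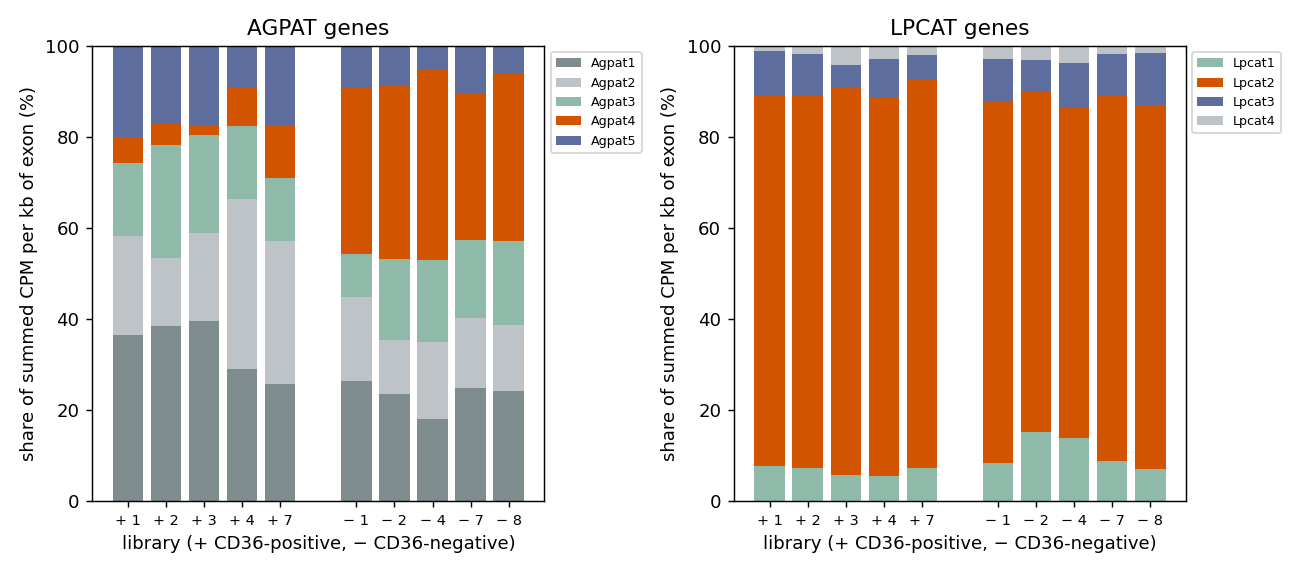
Make-up of the 5 AGPAT genes (left) and the 4 LPCAT genes (right) in each library, as the share of their summed CPM per kilobase of exon in percent (y axis, stacked bars). Libraries are on the x axis, with + for CD36-positive and − for CD36-negative. The orange Agpat4 segment is 32.1% to 41.8% of the bar in CD36-negative and 2.05% to 11.6% in CD36-positive libraries, while Lpcat2, also in orange, is the main segment of every LPCAT bar.

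Summed markers of dendritic cells, neutrophils, monocytes, and T and NK cells were each lower in every CD36-positive than in every CD36-negative library. Agpat4 had the same split, as did 5.83% of all genes tested. The 10 dendritic cell markers summed to 22.1 to 60.9 CPM in CD36-positive and 756.9 to 1185 CPM in CD36-negative libraries, and all 10 fell. Among CD36-negative libraries, library 1 had the highest dendritic cell sum and library 4 the highest Agpat4 (55.8 CPM). Neutrophil markers (10 genes) summed to 83.4 to 193.6 against 299.9 to 837.5 CPM, and monocyte markers (9 genes) to 468.7 to 972.4 against 1249 to 2216 CPM. In CD36-positive libraries most of the neutrophil sum was Csf3r, which was not called (65.1 to 175.5 against 97.5 to 275.8 CPM). Most of the monocyte sum there was Ccr2 and Fn1, also not called. Retnlg, a neutrophil gene, was at 0 in all 5 CD36-positive libraries against 4123 counts in CD36-negative ones, while Ly6g and Ngp were at 0 in all 5 CD36-positive and in 3 CD36-negative libraries. T and NK cell markers (9 genes) summed to 0.901 to 7.59 against 42.0 to 304.4 CPM. Photoreceptor markers (10 genes) summed to 117.8 to 891.6 against 387.4 to 2298 CPM, ranges that overlapped. The part of these cells in the fall of Agpat4 was not tested. Microglia markers, by contrast, spanned nearly the same range in both groups.

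**Figure D4:**
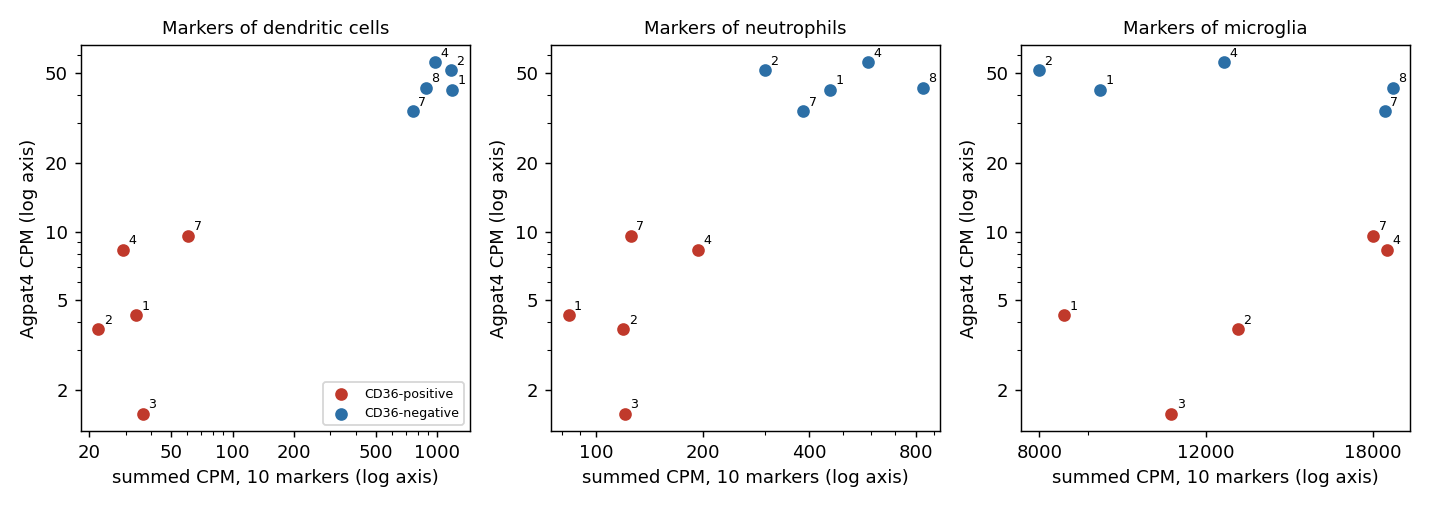
Agpat4 (y axis, CPM) against the summed CPM of 10 marker genes of dendritic cells, neutrophils and microglia (x axes), 1 dot per library with its number, all axes log. The CD36-negative libraries (blue) lie at the upper right for dendritic cells and neutrophils. In CD36-positive libraries most of the neutrophil sum is Csf3r, which was not called. For microglia both groups span the same range of the x axis while Agpat4 still differs, at 1.58 to 9.59 against 33.9 to 55.8 CPM.

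The conversion of phosphatidic acid to diacylglycerol and on to triglyceride did not differ past the threshold. Lpin2, a phosphatidate phosphatase and the most abundant gene of the step, was at 171.9, 100.9, 100.6, 154 and 106 CPM in CD36-positive libraries. In CD36-negative libraries it was at 112.3, 117.7, 96.5, 152.4 and 142.5 CPM. The groups overlapped throughout, with a log2 fold change of 0.03 (interval -0.40 to 0.46). Lpin1, its relative, was spread widely among CD36-positive libraries, from 9.03 to 32.5 CPM, with libraries 1 and 3 high, against 13.5 to 21.6 CPM. Its log2 fold change of 0.21 became -0.58 (adjusted p = 0.360) without those 2 shallow libraries. Dgat1 and Dgat2, the enzymes that make triglyceride from diacylglycerol, were at 23.5 ± 8.70 against 22.3 ± 7.66 and at 9.85 ± 3.15 against 11.5 ± 4.68 CPM, differences within the spread between libraries.

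The lysophospholipid acyltransferases held the most abundant member, Lpcat2, and the second gene that fell, Mboat7. Lpcat2, which remodels phosphatidylcholine and makes platelet-activating factor in inflammatory cells, was at 508, 828.7, 506.2, 993.2 and 1151 CPM in CD36-positive libraries 1, 2, 3, 4 and 7. It was at 687.9, 497.6, 687.6, 941.9 and 819.6 CPM in CD36-negative libraries 1, 2, 4, 7 and 8. Libraries of each group were found at both ends of the range, and the log2 fold change was 0.13 (interval -0.38 to 0.64, edgeR adjusted p = 0.806). Per kilobase Lpcat2 was at 235.4 and 214.6 CPM, far above the next member, Cept1 (67.8 and 41.8).

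Mboat7 transfers arachidonic acid to lysophosphatidylinositol. It was at 21.0, 54.8, 46.3, 59.1 and 54.8 CPM in CD36-positive libraries 1, 2, 3, 4 and 7, and at 70.2, 67.7, 86.6, 107.2 and 96.9 CPM in CD36-negative libraries 1, 2, 4, 7 and 8. Every CD36-positive library was below every CD36-negative one, and CD36-positive library 1 was the lowest. The means were 47.2 ± 15.3 and 85.7 ± 17.0 CPM (SD, n = 5 each), which gave -0.86 on the log2 scale (SE 0.25, interval -1.39 to -0.33, edgeR adjusted p = 0.0479). This call stood at the threshold: it was made in 9 of 21 alternative fits, with a lowest adjusted p of 0.0135. The fit against a log2 fold change of 1, counted among the 21, could not have called a value of -0.86. With 1 library left out the value ran from -0.95 to -0.69. The call was lost when CD36-positive library 2, 3 or 7 was left out, or any of the 5 CD36-negative ones. Without both shallow CD36-positive libraries the value was -0.62 (edgeR adjusted p = 0.0794). The call was also lost with the description's replicate number as a block, and with detected genes per library as a covariate. Mboat7 lies on chromosome 7 of GRCm38 from 3677789 to 3693523 on the minus strand. Its exons overlap those of Tsen34 on the opposite strand, with a longest exon-to-exon overlap of 149 bases. The sources used here do not say whether the counting used strand, so reads there cannot be assigned with certainty. The marker genes of dendritic cells, neutrophils, monocytes, and T and NK cells given above were lower in the same libraries, and their part in this fall was not tested either.

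The remaining lysophospholipid acyltransferases did not pass. Lpcat1, which makes the disaturated phosphatidylcholine of membranes and surfactant, was at 88.5 ± 32.9 against 132.4 ± 34.6 CPM (log2 fold change -0.58, interval -1.12 to -0.04, edgeR adjusted p = 0.198). Lpcat3, which brings polyunsaturated fatty acids into phosphatidylcholine, was at 69.9 ± 27.2 against 85.4 ± 27.0 CPM (interval -0.92 to 0.34). Its counts were fractional in all 10 libraries, and its line crosses a block edge of the damaged file. Its exons overlap those of Emg1 on the opposite strand, with a longest exon-to-exon overlap of 334 bases. Lpcat4 (-0.05, interval -0.80 to 0.69) and Lclat1, an enzyme of cardiolipin and phosphatidylinositol remodelling (0.20, interval -0.39 to 0.78), had log2 fold changes near 0. Mboat1 was low, at 0.634 to 6.19 against 1.63 to 10.0 CPM, and its interval (-1.36 to 1.60) allowed changes in either direction. Mboat2 had 52 and 48 counts over the groups and was not tested.

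Lpcat2 made up 81.1% to 85.3% of the summed CPM per kb of the 4 LPCAT genes in CD36-positive and 72.5% to 80.4% in CD36-negative libraries, ranges that did not overlap. Lpcat1 made up 5.65% to 7.82% against 7.03% to 15.2%. These shares are a description and were not tested. Mboat7 was the main gene of the 3 MBOAT genes in every library, at 61.2% to 96.6% and 78.5% to 95.9%.

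In the choline and ethanolamine branch no member passed, although the values lay on both sides of 0. Cept1, which carries out the last step to phosphatidylcholine and phosphatidylethanolamine, was the most abundant. It was at 252.5, 171.3, 156.3, 225.5 and 251.5 CPM in CD36-positive libraries 1, 2, 3, 4 and 7, and at 105.4, 106.7, 102.7, 152 and 183.8 CPM in CD36-negative libraries 1, 2, 4, 7 and 8. CD36-negative library 8 lay within the CD36-positive range, and the other 4 lay below it. The log2 fold change was 0.70 (SE 0.21, interval 0.25 to 1.15, edgeR adjusted p = 0.0553), just outside the threshold, and between 0.61 and 0.95 over 21 alternative fits, 7 of which called it. It passed without CD36-positive library 3 (0.79, adjusted p = 0.0399) or CD36-negative library 8 (0.85, adjusted p = 0.0265). Cept1 lies on chromosome 3 of GRCm38 from 106502260 to 106547802 on the minus strand. Its counts were fractional in 9 of 10 libraries. Its exons overlap those of Dennd2d on the opposite strand (longest exon-to-exon overlap 771 bases), which leaves the level uncertain.

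Cept1 outweighed Chpt1, the choline-specific enzyme of the same step, in every library, with 91.6% to 96.6% of their summed CPM per kb in CD36-positive and 91.3% to 95.3% in CD36-negative libraries. Exons of Chpt1 overlap those of Sycp3 on the opposite strand (longest exon-to-exon overlap 420 bases), and Chpt1 counts were fractional in 4 libraries. These shares are therefore uncertain, as is the level of Cept1. They also depend on the exon lengths, 3116 bases for Cept1 and 8324 for Chpt1. Chpt1 itself differed by a log2 fold change of 0.49 (interval -0.12 to 1.10). Pcyt2, the enzyme that makes CDP-ethanolamine and sets the pace of phosphatidylethanolamine synthesis, was at 14.3, 38.3, 18.5, 50.7 and 32.6 CPM in CD36-positive and 54.1, 55.1, 54.0, 44.7 and 53.2 CPM in CD36-negative libraries. CD36-negative libraries were close together and CD36-positive library 4 alone reached among them, with a log2 fold change of -0.75 (interval -1.36 to -0.15, edgeR adjusted p = 0.129). Without CD36-positive library 4 it passed, at -1.01 (adjusted p = 0.0380). Pcyt1a, its counterpart for phosphatidylcholine, was at 50.5 ± 14.6 against 53.9 ± 7.87 CPM.

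The kinases that phosphorylate choline, Chka and Chkb, were at 68.8 ± 25.3 against 47.5 ± 6.63 CPM (log2 fold change 0.53, interval 0.01 to 1.06, edgeR adjusted p = 0.226) and 69.3 ± 14.0 against 60.0 ± 13.8 CPM. For Chka, CD36-positive libraries 1, 3 and 4 were above every CD36-negative library, and libraries 2 and 7 were among them. Pemt, which methylates phosphatidylethanolamine in liver, had 30 and 40 counts over the groups and was not tested.

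In the phosphatidylserine branch the groups overlapped for all 3 genes. Pisd, the mitochondrial enzyme that turns phosphatidylserine into phosphatidylethanolamine, was at 60.7, 111.1, 89.8, 114 and 95.1 CPM in CD36-positive and 119.8, 93.9, 91.7, 101.8 and 120.6 CPM in CD36-negative libraries. Apart from CD36-positive library 1, which was low, the groups shared most of their range (log2 fold change -0.16, interval -0.58 to 0.25). Ptdss1 and Ptdss2, the phosphatidylserine synthases, differed by log2 fold changes of -0.16 (interval -0.64 to 0.31) and 0.02 (interval -0.53 to 0.58). All 3 intervals lay within -1 to 1.

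In the CDP-diacylglycerol branch, which leads to phosphatidylinositol and cardiolipin, Cds2 was separated between the groups without passing the test. Cds2, which makes CDP-diacylglycerol in the endoplasmic reticulum, was at 15.3, 27.4, 27.2, 31.2 and 33.3 CPM in CD36-positive libraries 1, 2, 3, 4 and 7. It was at 45.6, 37.0, 60.0, 40.2 and 37.9 CPM in CD36-negative libraries 1, 2, 4, 7 and 8. Every CD36-positive library was below every CD36-negative one, with a gap of a few CPM between CD36-positive library 7 and CD36-negative library 2 (log2 fold change -0.71, SE 0.24, interval -1.22 to -0.20, edgeR adjusted p = 0.0894). It passed in 1 of 21 alternatives, with detected genes per library as a covariate (-0.88, adjusted p = 0.0426). The 250 bases before the first of its 2 RefSeq starts (GRCm38.p6, chr2:132262898-132263147, plus strand) are shown beside those of Agpat4. The window of Mboat7, the other member without overlap, is not shown. For both genes shown, the groups did not overlap and the window holds no annotated exon. The capitals mark the CCAAT box, read as ATTGG where it lies on the other strand, 104 and 59 bases before the start.

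Cds2 upstream: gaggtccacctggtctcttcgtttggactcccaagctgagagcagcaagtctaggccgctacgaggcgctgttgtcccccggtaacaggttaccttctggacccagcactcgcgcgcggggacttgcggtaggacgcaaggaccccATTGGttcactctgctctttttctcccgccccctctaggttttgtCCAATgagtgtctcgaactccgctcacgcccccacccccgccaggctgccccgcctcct

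The window of Cds2 holds no GGAAGT, and the single motif of the 5 that it shares with the window of Agpat4 is CCAAT, which 33.8% of all promoters hold. Among the other genes of this branch, Cdipt, phosphatidylinositol synthase, was the most abundant, at 80.6, 88.7, 66.6, 106.5 and 110.1 CPM in CD36-positive and 106.4, 136.1, 83.2, 113.8 and 102.9 CPM in CD36-negative libraries. CD36-negative library 2 was the highest and CD36-positive library 3 the lowest, and the others were mixed (log2 fold change -0.26, interval -0.67 to 0.15, edgeR adjusted p = 0.480). Tamm41 (0.30, interval -0.41 to 1.01), Pgs1 (-0.23, interval -0.66 to 0.21) and Crls1 (0.23, interval -0.52 to 0.98), which carry out successive mitochondrial steps to cardiolipin, did not pass. The 5 genes of the branch summed to 186.5 to 259.1 CPM in CD36-positive and 239.8 to 282 CPM in CD36-negative libraries.

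The order of libraries across the members was in part that of all genes. CD36-positive library 1, the shallowest, was the lowest of the 10 for 7 of 32 members (21.9%) and the highest for 6 (18.8%), against 22.8% and 20.9% of all genes tested. CD36-positive library 3 was the lowest for 7 members (21.9%, against 13.2%), and CD36-negative library 4 the highest for 8 (25.0%, against 10.2%).

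Genes around the pathway gave further context, from lists of related genes that were also chosen with results of these data known. Of 32 tested genes of neighbouring synthesis steps, 2 were higher, 2 were lower and 28 did not pass (median log2 fold change 0.16). Calls were 12.5% of this list, where 2.61% of all genes tested were higher and 4.74% lower. Whether any of these lists exceeded that background was not tested. Agps, which makes the ether bond of plasmalogens in peroxisomes, rose from 88.3 ± 12.4 CPM in CD36-negative to 149.5 ± 12.7 CPM in CD36-positive cells (log2 fold change 0.76, SE 0.17, edgeR adjusted p = 0.00827). Its groups did not overlap (CD36-positive above, as for 2.59% of all genes tested), and its line crosses a block edge of the file. Gk, glycerol kinase, which supplies glycerol 3-phosphate, rose from 44.0 ± 14.2 to 93.8 ± 28.5 CPM (1.09, SE 0.27, adjusted p = 0.0176), though without both shallow CD36-positive libraries it did not pass (0.93, adjusted p = 0.0697).

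The lower genes of that list were a choline carrier and a kinase that makes phosphatidic acid. Slc44a2, the carrier, fell from 170.9 ± 26.0 to 89.3 ± 13.5 CPM (-0.94, SE 0.18, edgeR adjusted p = 0.00259). Dgka, diacylglycerol kinase alpha, which is abundant in T cells, was at 8.87 ± 4.59 against 26.8 ± 5.77 CPM (-1.59, SE 0.39, adjusted p = 0.0185) and did not pass without CD36-negative library 4 (-1.55) or 7 (-1.50). T and NK cell markers were lower in CD36-positive libraries as given above, and their part in the fall of Dgka was not tested.

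On the side of breakdown, 2 of 30 tested phospholipase and deacylation genes were higher, 1 was lower and 27 did not pass (median -0.13). Calls were 10.0% of this list, against 2.61% higher and 4.74% lower over all genes tested. Pla2g4a, the cytosolic phospholipase that frees arachidonic acid, was within 78.3 to 84.0 CPM in CD36-positive and 29.2 to 64.9 CPM in CD36-negative libraries (log2 fold change 0.80, SE 0.21, adjusted p = 0.0238 by edgeR). The gene did not pass without CD36-negative library 1, 2, 4 or 8, with values from 0.65 to 0.82. Pld1, which makes phosphatidic acid from phosphatidylcholine, was at 66.6 ± 25.0 against 33.6 ± 9.76 CPM (0.98, SE 0.27, adjusted p = 0.0369), and was called in 12 of 21 alternatives. Leaving out library 1 or 4 of the CD36-positive group, or 2, 4, 7 or 8 of the CD36-negative group, ended the call. Plbd1, a lysosomal phospholipase B-like gene abundant in myeloid cells, fell from 959.4 ± 231.9 to 396 ± 112.5 CPM (-1.28, SE 0.22, adjusted p = 0.00134).

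Genes that supply fatty acyl chains (10 tested, median -0.27) had 0 calls in either direction by edgeR's test, with 1 at an unadjusted p under 0.05 on the higher side and 0 on the lower. Of 13 tested transcription regulators of lipid genes (median -0.19), 0 were higher and 2 were lower (15.4%, against 4.74% of all genes tested). These were Srebf2, the regulator of sterol synthesis, at 11.3 to 18.8 CPM in CD36-positive and 36.8 to 63.9 CPM in CD36-negative libraries, and Nr1h2, which encodes a liver X receptor, at 22.9 to 47.8 against 59.6 to 109.0 CPM. In this list 3 genes, Srebf2 and Nr1h2 among them, had every CD36-positive library below every CD36-negative one, against 5.83% of all genes tested. The sterol response element and the LXR repeat are the letters that these factors are known to bind. The first was in 2 of the members' 39 windows, both of 1 gene. The LXR repeat, in 0.0152% of all entries, is too rare for its absence from 39 windows to be informative. Whether these factors act on the members was not tested.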

How the data were processed

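RNA levels were measured by sequencing in 10 libraries, 5 CD36-positive and 5 CD36-negative. The authors deposited expected counts for each gene symbol, which are estimates and not normalized. Of the values, 91.9% were whole numbers. The submitters' processing notes name fastp 0.18.0, Bowtie2 2.2.8, HISAT2 2.1.0, StringTie 1.3.1 and mm10, while the sources used here do not name the counting program. Of 22008 lines, 8 damaged and 131 repeated ones were dropped, leaving 21869 genes. The damage followed blocks of 1024 bytes. Among the members Lpcat3 alone crosses a block edge.

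Counts were rounded, filtered with filterByExpr (minimum count 10) and normalized by TMM. The test was the quasi-likelihood test of edgeR 4.0.16 (R 4.3.3) on a model of group alone. P-values were adjusted over 11596 genes by Benjamini-Hochberg, with a threshold of 0.05. CPM use TMM-scaled totals, and levels per kilobase divide by the GENCODE exon length. Intervals are at 95%. Floors of 3 counts reflect counting error alone: PCR copies are not separate molecules. No pair of replicates agreed within sampling noise. Promoter sequences are from RefSeq (GRCm38.p6) and gene positions from GENCODE on GRCm38.

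The members and lists were chosen with earlier results of these data known. All 35 members are accounted for. Values per library are given for members past the threshold and the most abundant member of each step. Of related lists, up to 4 genes per direction past the threshold are named by smallest p. Cds2, Pcyt2 and other members given per library were chosen after their values were seen. Alternatives were DESeq2 1.42.0 size factors and Wald test, limma 3.58.1 voom, other filters, thresholds and covariates. The replicate block was another, as was each library left out. The fit against a log2 fold change of 1 could not call genes with values within -1 to 1. Added after seeing the data were a fit without both shallow CD36-positive libraries and one without lines at block edges. The series' single-cell and spatial data were not analysed here.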

Additional observations from a re-analysis of the deposited data

Results flagged for a closer look

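In 9 of 88 groups of 5 libraries, 1 library lay far from the other 4 by Dixon's criterion (gap over range above 0.71). Chance flags about 1 in 20 groups. Of these, 3 were weakly expressed genes: Gpat3 was at 2.42 CPM in CD36-positive library 1 against at most 0.113 CPM in the others, Mboat2 at 4.87 CPM in CD36-positive library 3 (next 0.790), and Mboat1 at 0.634 CPM in CD36-positive library 7 (next 4.85). Among the other CD36-positive libraries, library 4 held 35.3 CPM of Agpat5 (next 52.2). In CD36-negative cells, library 8 was high for Lpin1 (21.6 CPM, next 14.7) and for Lclat1 (21.1 CPM, next 15.9). CD36-negative library 7 was low for Pcyt2 (44.7 CPM, next 53.2), library 4 high for Ptdss2 (36.6 CPM, next 25.6) and library 2 high for Crls1 (20.2 CPM, next 10.8). None of these 9 genes was called.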

How the results depend on the processing

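Agpat4 was called lower in all 21 alternatives. Of 858 values of 41 named genes under alternatives, 806 kept direction and side of the threshold, or changed sign uncalled by less than the SE. A call was lost in 37 and gained in 9, and 0 called values changed sign. Uncalled values changed sign in 44 cases, in 6 of them by at least the SE. Shifts that kept the sign and the side of the threshold were not compared with the SE. The number of members higher, 0, became 1 (Cept1) with the filter of 10 CPM in 5 samples, with limma voom, under the Wald test of DESeq2, and with the replicate block by either label's number, and ran from 0 to 1 with 1 library left out. The number lower, 2, became 1 (Agpat4) with the replicate block by the description's number, where Mboat7 was at -0.88 (adjusted p = 0.0827), when tested against a difference of 1 (log2), at an adjusted p under 0.01 and without both shallow CD36-positive libraries, and ran from 1 to 3 with 1 library left out. The cause was not tested. Deviations from the group means correlated weakly between same-numbered samples. By the description r was above 0 in all 4 pairs (0.029 to 0.133), and by the title it ran from -0.021 to 0.133. Of 8 samples with a shared description number, 4 correlated best with their own number. These values do not settle whether the numbers pair samples, and the main fit did not use the numbers.

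Over all genes, 303 were higher and 550 lower. These counts were 533 and 743 with the DESeq2 Wald test, 6 and 214 when tested against a difference of 1 (log2), 184 and 466 with the replicate block by the description's number, and 188 and 570 without the shallow libraries. With 1 library left out, the lowest count higher was 132, without CD36-negative library 4. It was 196 without CD36-positive library 3, and 182 and 197 without CD36-negative libraries 7 and 8. No scaling moved the median of all genes by over 0.1. A change of pseudocount was planned for normalized units and was not run on counts. Lpcat3 was not tested with block-edge lines left out, nor Mboat1 with the stricter filter. Gpat3, Mboat2 and Pemt fell under the filter on low counts. With no filter they were at -1.35, 0.57 and -0.17 (adjusted p from 0.660 to 0.962), and without the shallow libraries Mboat2 and Pemt were at -0.66 and 0.53, so their direction was not settled.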
